A study of Mus musculus with 4 samples.

Results

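The genes described here are 6 CXC chemokines, Cxcl1, Cxcl2, Cxcl5, Cxcl10, Cxcl12 and Cxcl14, out of 17524 genes listed for single cells of the mouse thoracic aorta. They were taken by name, and all 6 were found. For each gene the transcripts were summed, and the cells with at least 1 transcript were counted, in each library and in 3 sets of cells gated on other genes. The smooth muscle gate took cells with at least 3 UMIs of Myh11, the smooth muscle myosin heavy chain. The fibroblast gate took cells with at least 10 UMIs of Dcn and Lum together, both proteoglycans of connective tissue, and at most 1 of Myh11. The phagocyte gate took cells with at least 10 UMIs of Lyz2, C1qa and C1qb together, which encode lysozyme and complement C1q, and under 10 of Dcn and Lum. A UMI (unique molecular identifier) marks 1 captured transcript.

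Single-cell RNA was captured in droplets at the 3′ ends of transcripts from 4 libraries, each from 3 pooled mice. The KO AngII library came from Sting-KO mice (whole body knockout) given angiotensin II (AngII), a hormone that constricts arteries, for 7 days and a high fat diet for 5 weeks. The WT AngII library came from wild-type mice given both. The KO saline and WT saline libraries came from Sting-KO and wild-type mice on normal diet given saline. The infusion and the diet cannot be told apart, and "AngII" below means both. Each group is 1 library, so differences were neither tested nor checked in replicates. All intervals are 95% exact counting intervals, which cover counting error only and not differences between mice or preparations. Those of levels and ratios treat UMIs as independent, so they do not cover differences between the cells of a gate either. Tmem173, the gene for STING, had 578 UMIs (6.11 per 1000000 UMIs, CPM) in KO AngII and 637 (7.04) in WT AngII, and 102 (1.33) in KO saline and 105 (1.75) in WT saline. It was thus not depleted in the libraries labelled KO, and since 3′ tags that fall outside the altered sequence check nothing, "KO" below is only the label.

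CXC chemokines are small secreted proteins that direct the migration of cells through G protein-coupled receptors. Those with a Glu-Leu-Arg motif (Cxcl1, Cxcl2, Cxcl5) act on Cxcr2 and draw neutrophils, and are produced when NF-kappaB is activated by cytokines, microbial products or tissue injury. Cxcl10 is induced by interferons and draws activated T cells and natural killer cells through Cxcr3, whereas Cxcl12 is made constitutively by stromal cells and retains leukocytes and progenitors through Cxcr4. Cxcl14 is a homeostatic chemokine of epithelia and fibroblasts whose receptor is less well defined.

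Cxcl1, Cxcl2, Cxcl5 and Cxcl10 lie on chromosome 5, all 4 protein coding (GENCODE annotation, GRCm38). Cxcl1 spans 90891241 to 90893115, Cxcl2 90903871 to 90905938 and Cxcl5 90759360 to 90761624, each on the plus strand, and Cxcl10 spans 92346638 to 92348889 on the minus strand. Cxcl12 lies on chromosome 6 from 117168535 to 117181367 (plus) and Cxcl14 on chromosome 13 from 56288643 to 56296551 (minus). The 250 bases before the RefSeq start (GRCm38.p6) were read for the 5 members with an entry, Cxcl5 having none. The 3 members below are shown because they held letters of a kappaB-like motif. Capitals mark these and any interferon-response-like or AP-1-like matches.
Cxcl1, chr5:90890995-90891244, plus strand: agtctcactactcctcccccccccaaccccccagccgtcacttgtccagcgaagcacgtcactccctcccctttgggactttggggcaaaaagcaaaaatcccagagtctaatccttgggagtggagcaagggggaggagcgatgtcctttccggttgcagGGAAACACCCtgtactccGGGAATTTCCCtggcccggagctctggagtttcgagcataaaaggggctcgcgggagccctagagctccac
Cxcl2, chr5:90903649-90903898, plus strand: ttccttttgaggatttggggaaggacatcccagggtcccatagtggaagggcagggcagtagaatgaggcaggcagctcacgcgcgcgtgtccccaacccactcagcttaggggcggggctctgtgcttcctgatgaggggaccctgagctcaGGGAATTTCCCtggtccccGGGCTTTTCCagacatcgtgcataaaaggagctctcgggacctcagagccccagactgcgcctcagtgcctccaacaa
Cxcl10, chr5:92348890-92349139, minus strand: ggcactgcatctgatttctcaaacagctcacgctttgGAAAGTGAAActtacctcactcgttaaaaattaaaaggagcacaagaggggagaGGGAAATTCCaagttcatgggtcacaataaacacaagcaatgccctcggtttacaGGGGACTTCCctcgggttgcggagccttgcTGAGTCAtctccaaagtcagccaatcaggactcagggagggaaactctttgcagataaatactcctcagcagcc
The motif letters searched on both strands were GGG, any 3 bases and TTCC (kappaB-like), GAAA, any 2 bases and GAAA (interferon response element-like), TGANTCA (AP-1-like) and TATAAA. They occurred in 4.65%, 2.98%, 6.75% and 12.4% of 32851 promoters of the same length. Cxcl1 and Cxcl2 each held 3 kappaB-like matches in 2 separate stretches, since the palindrome-like stretch GGGAATTTCCC, present in both, matches on either strand. Cxcl10 held 2 kappaB-like matches, 1 interferon-response-like match and 1 AP-1-like match. Cxcl14 (chr13:56296552-56296801, minus strand) held 1 interferon-response-like match, Cxcl12 (chr6:117168285-117168534, plus strand) held none of the 4 motifs, and TATAAA was found in none of the 5 windows. A match of letters is a description of the window and not a binding site.

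The libraries held 8507 (KO AngII), 8495 (WT AngII), 12053 (KO saline) and 9261 (WT saline) cells, with medians of 9294, 9938, 6071 and 5888 UMIs per cell. Pairs of libraries shared between 92 and 148 cell barcodes, and no shared barcode had the same UMI total in both. The smooth muscle gate held 5660, 5889, 10350 and 7546 cells of KO AngII, WT AngII, KO saline and WT saline, the fibroblast gate 1879, 1696, 506 and 1021, and the phagocyte gate 559, 705, 83 and 285. All 6 of 6 markers of smooth muscle, of fibroblasts and of phagocytes that were not used for gating had their highest level in their own gate in all 4 libraries. Gates were not pure, and some gated cells met the minimum of another gate. Acta2 and Tagln, smooth muscle genes, stood in the phagocyte gate at 16.1% (KO AngII), 15.3% (WT AngII), 17.1% (KO saline) and 15.3% (WT saline) of their smooth muscle level. Csf1r and Fcer1g, phagocyte genes, stood in the smooth muscle gate at 0.828%, 1.02%, 0.0949% and 0.337% of their phagocyte level. Such marker percentages are given again beside several of the levels in a second gate.

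Each member had its own distribution over the gates. Levels are CPM, the gene's UMIs per 1000000 UMIs of the gate's cells. In the plot of levels by gate and library, Cxcl2 was highest in phagocytes, Cxcl12 in fibroblasts and smooth muscle cells, Cxcl1 in fibroblasts of the AngII libraries and in phagocytes of the saline libraries, and Cxcl5 and Cxcl14 were low in both saline libraries.

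**Figure D1:**
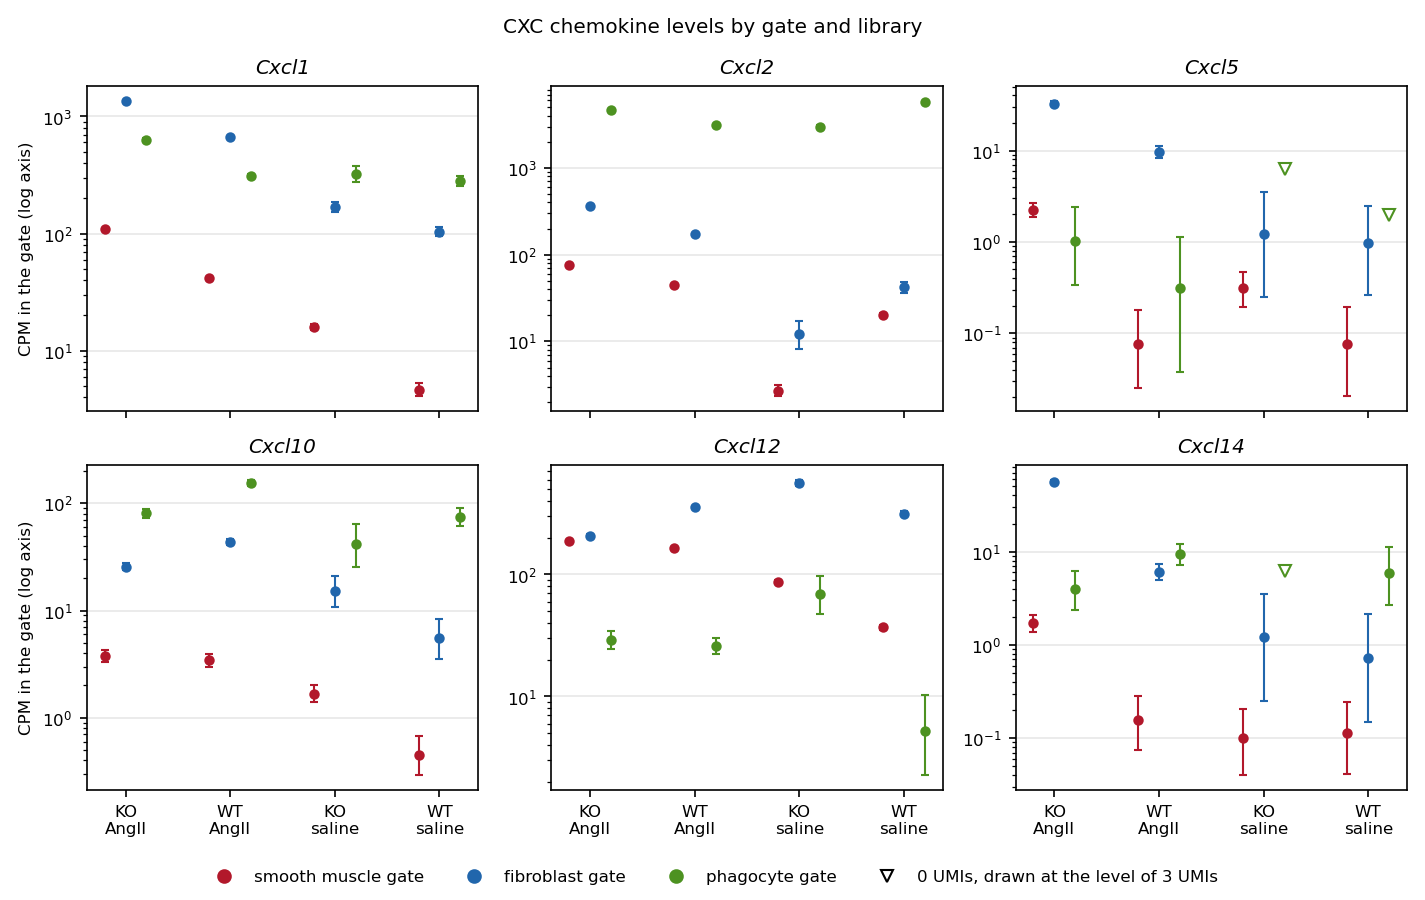
Level of each of the 6 genes (CPM, log axis) in the 3 gates and 4 libraries, with 95% Poisson intervals as bars and triangles where a library had no UMI, drawn at the level of 3 UMIs. Cxcl2 in phagocytes is the highest level of the family in every library, between 2979 and 5823 CPM, and Cxcl14 in fibroblasts spans 55.6 CPM in KO AngII to 0.729 CPM in WT saline.

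Cxcl1, a ligand of the neutrophil receptor Cxcr2, was the most abundant member in fibroblasts of both AngII libraries. In the fibroblast gate it reached 1347 CPM in KO AngII (interval 1333 to 1362) and 674 in WT AngII (662 to 686), and 168 in KO saline (153 to 185) and 104 in WT saline (94.4 to 114). The 4 intervals did not overlap. Cells with at least 1 UMI were 71.5% of fibroblasts in KO AngII (69.4 to 73.6) and 46.6% in WT AngII (44.2 to 49.0), and 19.6% in KO saline (16.2 to 23.3) and 11.3% in WT saline (9.39 to 13.4). Depth differed (median 11779, 9153.5, 3874.5 and 3608 UMIs per fibroblast), so each cell was thinned to 2000 UMIs, which gave expected shares of 52.9%, 31.1%, 13.3% and 7.99% in the same order of libraries. A fibroblast with Cxcl1 carried on average 24.7 Cxcl1 UMIs in KO AngII and 15.2 in WT AngII, and 4.21 in KO saline and 3.72 in WT saline, up to 258, 212, 58 and 45 in a single cell. Both the share of positive cells and the amount per positive cell thus had the same order.

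In the smooth muscle gate Cxcl1 was at 109 CPM in KO AngII and 41.3 in WT AngII, and at 15.9 in KO saline and 4.65 in WT saline. This was 8.10%, 6.14%, 9.42% and 4.47% of the fibroblast level, where the fibroblast genes Dpt and Pdgfra stood at 4.13%, 2.89%, 2.58% and 1.73%. Taking out the cells that also met another gate's minimum left 59.0 CPM in KO AngII and 22.1 in WT AngII, and 11.8 in KO saline and 2.99 in WT saline. In the phagocyte gate the levels were 626 CPM in KO AngII and 309 in WT AngII, and 325 in KO saline and 282 in WT saline. The intervals of the last 3 (296 to 323, 276 to 380 and 256 to 310) overlapped, and 73.7% of the 156 UMIs of KO saline phagocytes came from 1 cell. Without the richest 1% of each gate, KO saline had 87.2 CPM in phagocytes and 91.2 in fibroblasts, and WT saline 155 and 57.9. Phagocytes were thus above fibroblasts in KO saline only with that cell.

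Cxcl2, the second Cxcr2 ligand and a typical product of activated macrophages, was concentrated in phagocytes. It stood there at 4668 CPM in KO AngII (4607 to 4729) and 3150 in WT AngII (3106 to 3193), and at 2979 in KO saline (2826 to 3138) and 5823 in WT saline (5702 to 5945). WT saline was the highest and WT AngII and KO saline, whose intervals overlapped, the lowest. The share of phagocytes with a UMI had another order, with 84.4% in KO AngII and 77.4% in WT AngII, and 59.0% in KO saline and 56.8% in WT saline (75.2%, 66.3%, 50.6% and 52.3% after thinning). A phagocyte with Cxcl2 carried on average 47.9, 37.1, 29.2 and 54.9 Cxcl2 UMIs in KO AngII, WT AngII, KO saline and WT saline. WT saline thus had the most Cxcl2 UMIs per positive phagocyte. Its share of positive phagocytes (50.9 to 62.7) overlapped that of KO saline (47.7 to 69.7), and the order of these 2 turned with thinning. Cells in the phagocyte gate alone held 58.1%, 74.9%, 82.7% and 86.6% of the Cxcl2 UMIs of KO AngII, WT AngII, KO saline and WT saline.

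Cxcl2 in fibroblasts was at 361 CPM in KO AngII and 174 in WT AngII, and at 12.1 in KO saline (30 UMIs) and 42.0 in WT saline (173 UMIs). This was 7.73%, 5.51%, 0.407% and 0.722% of the phagocyte level, where Csf1r and Fcer1g stood at 2.06%, 1.56%, 0.0699% and 0.801%. The WT saline value was thus no higher than the level of phagocyte genes in the same cells. In the smooth muscle gate Cxcl2 was at 76.05 CPM in KO AngII and 44.7 in WT AngII, and at 2.71 in KO saline and 20.2 in WT saline. The saline values were 0.0911% (KO) and 0.347% (WT) of the phagocyte level, close to the 0.0949% and 0.337% of the phagocyte genes, and the AngII values were 1.63% (KO) and 1.42% (WT), against 0.828% and 1.02%. Cells that also met the phagocyte gate held 2616 of 4552 Cxcl2 UMIs of the smooth muscle gate in KO AngII and 1651 of 2887 in WT AngII, and 45 of 191 in KO saline and 782 of 1069 in WT saline. Without any cell that met another gate's minimum, smooth muscle Cxcl2 was at 25.4 CPM in KO AngII and 13.5 in WT AngII, and at 1.81 in KO saline and 5.35 in WT saline. Fibroblast Cxcl2 was then at 330 CPM in KO AngII and 145 in WT AngII, and at 8.90 in KO saline and 10.1 in WT saline, so the AngII levels of fibroblasts stood well above both saline levels.

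**Figure D2:**
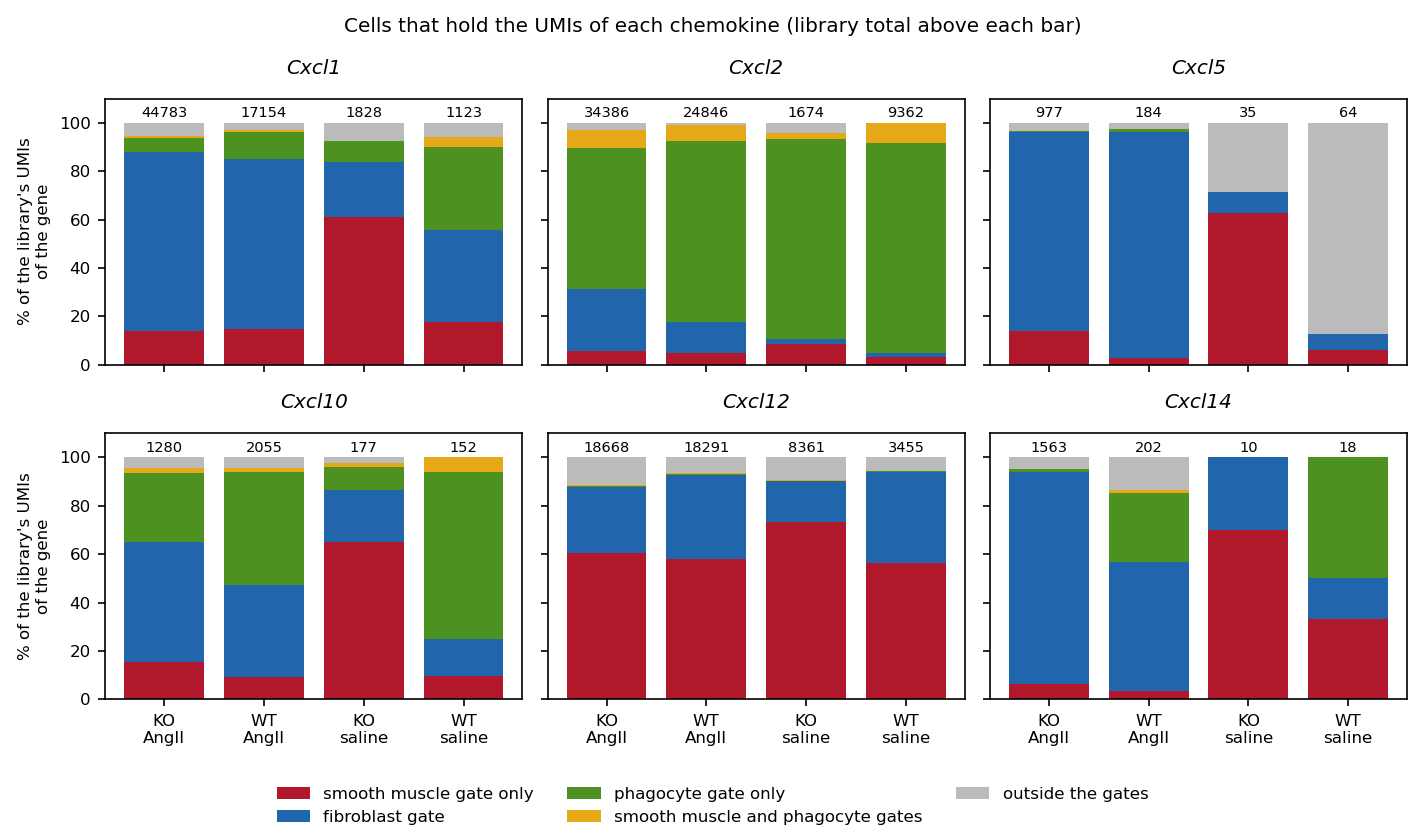
Share of each gene's UMIs in a library (%) by the gate or gates of the cells that held them, with the library's UMIs of the gene above each bar. Fibroblasts hold 74.1% of Cxcl1 in KO AngII and 70.2% in WT AngII, and 22.8% in KO saline and 38.1% in WT saline, whereas phagocytes hold most Cxcl2 in all 4 libraries.

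Cxcl5, the third Cxcr2 ligand, was rare and rested on few cells. The libraries held 977 UMIs in KO AngII and 184 in WT AngII, and 35 in KO saline and 64 in WT saline. Fibroblasts of KO AngII had 805 of them, of which 419 came from 1 cell, and 50 of 1879 cells were positive (2.66%). Fibroblasts of WT AngII had 172 UMIs in 17 cells, those of KO saline 3 in 3 cells and those of WT saline 4 in 3 cells. In the smooth muscle gate of KO AngII, 102 of 135 UMIs came from 1 cell. In WT saline 87.5% of Cxcl5 UMIs lay outside all gates, 56 UMIs in 12 cells.

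Cxcl10, the interferon-inducible ligand of Cxcr3, was highest in phagocytes. It stood there at 80.8 CPM in KO AngII (73.0 to 89.2) and 155 in WT AngII (146 to 165), and at 41.7 in KO saline (25.5 to 64.4) and 74.7 in WT saline (61.6 to 89.7). WT AngII was the highest, and the intervals of KO AngII and WT saline overlapped. In WT AngII a single phagocyte held 237 of 999 UMIs, and without the richest 1% of phagocytes the levels were 57.6 CPM in KO AngII and 69.3 in WT AngII, and 25.5 in KO saline and 56.6 in WT saline. Fibroblasts had 25.7 CPM in KO AngII (23.7 to 27.8) and 43.7 in WT AngII (40.7 to 46.9), and 15.4 in KO saline (38 UMIs) and 5.59 in WT saline (23 UMIs). Positive fibroblasts were 10.1% in KO AngII (8.79 to 11.6) and 11.03% in WT AngII (9.57 to 12.6), with overlapping intervals, against 1.58% in KO saline and 0.881% in WT saline. After thinning, these shares were 3.61% in KO AngII and 4.57% in WT AngII, and 1.14% in KO saline and 0.469% in WT saline.

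Cxcl12, the constitutive ligand of Cxcr4, was the member found in the largest share of smooth muscle cells in every library. The smooth muscle level was 190 CPM in KO AngII (186 to 193) and 166 in WT AngII (163 to 169), and 87.3 in KO saline (85.1 to 89.5) and 37.0 in WT saline (35.4 to 38.7). Positive cells were 45.0% in KO AngII and 55.7% in WT AngII, and 32.6% in KO saline and 18.7% in WT saline (18.5%, 20.6%, 14.5% and 6.62% after thinning). Phagocytes had a Cxcl12 UMI in 11.99% of cells in KO AngII and 12.5% in WT AngII, and in 19.3% in KO saline and 2.11% in WT saline, at medians of 7596, 7905, 5113 and 4678 UMIs per cell. Smooth muscle cells held 60.8%, 58.6%, 73.4% and 56.7% of the Cxcl12 UMIs of KO AngII, WT AngII, KO saline and WT saline.

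Fibroblasts had the reverse order of AngII and saline within KO. Their Cxcl12 level was 208 CPM in KO AngII (203 to 214) and 355 in WT AngII (346 to 363), and 565 in KO saline (536 to 595) and 316 in WT saline (299 to 333). KO saline was the highest and KO AngII the lowest of the 4, with no overlap of intervals. The smooth muscle level came to 91.0% of the fibroblast level in KO AngII and 46.8% in WT AngII, against 15.5% in KO saline and 11.7% in WT saline, far above the 1.73% to 4.13% of the fibroblast genes. In phagocytes Cxcl12 stood at 28.9 CPM in KO AngII, 26.0 in WT AngII and 5.24 in WT saline, 15.3%, 15.6% and 14.2% of the smooth muscle level, next to the 15.3% to 16.1% of Acta2 and Tagln in these libraries. KO saline phagocytes had 68.8 CPM, 78.8% of the smooth muscle level, from 33 UMIs. Without cells that met another gate's minimum, phagocyte Cxcl12 was at 12.7 CPM in KO AngII (48 UMIs) and 11.4 in WT AngII (59 UMIs), and at 63.1 in KO saline (25 UMIs) and 2.49 in WT saline (3 UMIs). Acta2 and Tagln in AngII phagocytes were then at 823 CPM (KO) and 467 (WT), against 4722 and 4232 with those cells, relatively a larger drop than for Cxcl12.

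Cxcl14 was seen mainly in fibroblasts of KO AngII, which held 87.7% of that library's 1563 UMIs, whereas the other libraries held 202 (WT AngII), 10 (KO saline) and 18 (WT saline) in all. Fibroblasts had 55.6 CPM in KO AngII and 6.04 in WT AngII, and 1.21 in KO saline and 0.729 in WT saline (3 UMIs each). Positive fibroblasts numbered 341 of 1879 in KO AngII (18.1%) and 42 of 1696 in WT AngII (2.48%), and 1 in KO saline and 3 in WT saline. After thinning, the AngII shares were 5.97% in KO and 0.808% in WT. The 102 UMIs in the smooth muscle gate of KO AngII were 3.06% of the fibroblast level, below the 4.13% of the fibroblast genes, and 29 UMIs were left without cells that met another gate. In WT AngII the smooth muscle level was 2.56% of the fibroblast level, below the 2.89% of the fibroblast genes. Phagocytes had 19 UMIs in KO AngII (3.92 CPM) and 60 in WT AngII (9.33 CPM), and none in KO saline and 9 in WT saline, so the phagocyte level was above that of fibroblasts in WT AngII and, at 5.90 CPM, in WT saline.

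Under AngII the KO library held more Cxcl14 and more of the Cxcr2 ligands in fibroblasts than the WT library, and less Cxcl10 and Cxcl12. Of the 17 member-by-gate values with at least 10 UMIs in both libraries together, 8 were at least 2-fold apart with the counting interval beyond 0, 7 higher in KO AngII and 1 lower. Over all genes and gates 6.53% of values met the same criterion. The same shares per gate and direction are given in parentheses. In smooth muscle 3 of 6 members were higher (2.77% of genes) and none lower (2.1%), in fibroblasts 3 of 6 were higher (2.34%) and none lower (7.56%), and in phagocytes 1 of 5 was higher (1.37%) and 1 lower (3.28%). The 3 in smooth muscle were Cxcl1, Cxcl5 and Cxcl14. Cxcl14 was there at 3.46 in log2 (2.52 to 4.56), from 102 against 10 UMIs, and 29 against 1 without cells meeting another gate's minimum. Its smooth muscle level relative to fibroblasts was below that of the fibroblast genes in both libraries.

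Among the Cxcr2 ligands, the log2 ratio of KO AngII to WT AngII for Cxcl1 was 1.40 in smooth muscle (1.34 to 1.47), 0.9997 in fibroblasts (0.97 to 1.03) and 1.02 in phagocytes (0.94 to 1.10). The fibroblast value lay just under the 2-fold limit and was not counted among the 8. Cxcl2 had 0.77 in smooth muscle (0.70 to 0.83), 1.05 in fibroblasts (0.9958 to 1.11) and 0.57 in phagocytes (0.54 to 0.59), so all 3 gates were higher in KO AngII, by least in the gate where it was most abundant. Cxcl5 had 1.76 in fibroblasts (1.53 to 2.01), a value that carries the single cell with 419 UMIs, and 4.86 in smooth muscle (3.61 to 6.51), where 25 against 5 UMIs remained once cells meeting another gate were taken out.

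Cxcl10 differed the other way, with log2 ratios of -0.77 in fibroblasts (-0.92 to -0.61) and -0.94 in phagocytes (-1.12 to -0.77), both short of 2-fold, and 0.14 in smooth muscle (-0.13 to 0.42). The phagocyte ratio carries the WT AngII cell with 237 UMIs, and without the richest 1% of phagocytes the levels of 57.6 CPM in KO AngII and 69.3 in WT AngII were much closer. Cxcl12 was lower in KO AngII fibroblasts, at -0.77 (-0.82 to -0.71), and in smooth muscle the ratio was 0.19 (0.15 to 0.23), a direction that turned with each cell weighted equally (mean over cells 133 CPM in KO AngII and 145 in WT AngII) and was not that of the positive cells, 45.0% in KO AngII and 55.7% in WT AngII. Cxcl14 had the largest ratio in fibroblasts, 3.20 (2.92 to 3.50), and was lower in phagocytes, at -1.25 (-2.08 to -0.48).

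**Figure D3:**
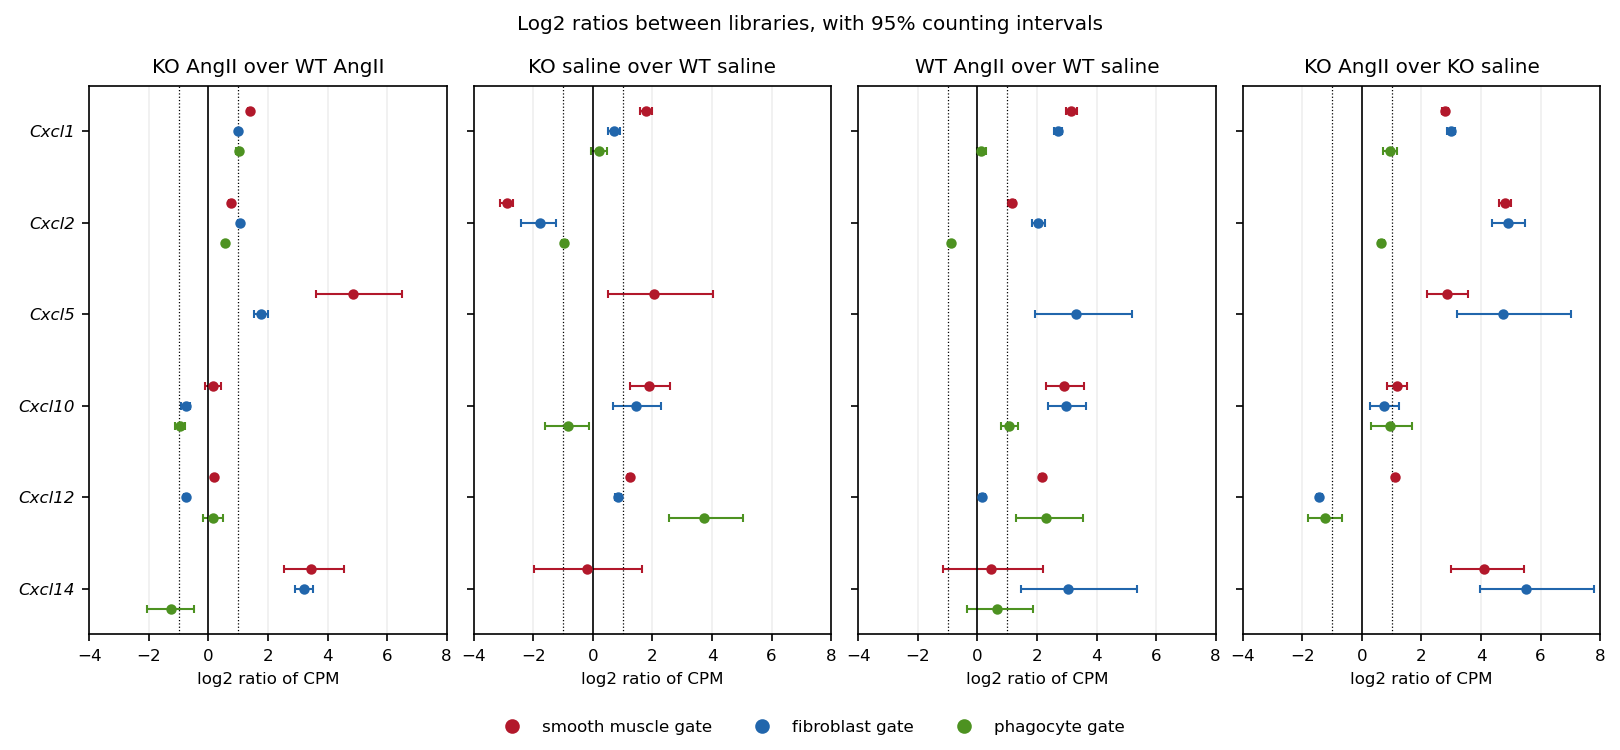
Log2 ratios of the 6 genes in the 3 gates for the 4 comparisons, with 95% counting intervals and lines at 2-fold. In fibroblasts of KO AngII over WT AngII, Cxcl14 lies at 3.20 and Cxcl10 and Cxcl12 both lie at -0.77.

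In the saline libraries the KO and WT differed in another pattern. Of 14 values with at least 10 UMIs, 8 were at least 2-fold apart with the interval beyond 0, 6 higher in KO saline and 2 lower, against 6.7% over all genes and gates. In smooth muscle 4 of 6 members were higher (3.1% of genes) and 1 lower (3.22%), in fibroblasts 1 of 4 was higher (4.6%) and 1 lower (3.36%), and in phagocytes 1 of 4 was higher (3.34%) and none lower (2.37%). KO saline smooth muscle had more Cxcl1, with a log2 ratio of 1.77 (1.57 to 1.98), more Cxcl10, at 1.89 (1.24 to 2.58), and more Cxcl12, at 1.24 (1.16 to 1.31). Fibroblasts had 0.70 for Cxcl1 (0.50 to 0.89), 1.46 for Cxcl10 (0.67 to 2.27) and 0.84 for Cxcl12 (0.73 to 0.95). The fibroblast Cxcl10 value rests on 8 positive cells in KO saline and 9 in WT saline. It was 0.98 as a mean over cells and 2.06 without cells meeting another gate's minimum.

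Cxcl2 was lower in KO saline than in WT saline in every gate, with log2 ratios of -2.90 in smooth muscle (-3.13 to -2.67), -1.79 in fibroblasts (-2.40 to -1.23) and -0.97 in phagocytes (-1.05 to -0.89). Without cells that met another gate's minimum, the smooth muscle ratio was -1.57, the fibroblast ratio -0.18 (-0.9967 to 0.60) from 22 against 41 UMIs, and the phagocyte ratio -0.94. The smooth muscle levels were 0.0911% (KO saline) and 0.347% (WT saline) of the phagocyte level, close to the 0.0949% and 0.337% of the phagocyte genes. Phagocyte gate cells were 0.690% of cells in KO saline and 3.08% in WT saline. The part of phagocyte RNA in the smooth muscle and fibroblast ratios was not tested. Cxcl12 in phagocytes had 3.71 (2.57 to 5.04) from 33 against 8 UMIs, and Cxcl5 in smooth muscle 2.05 (0.49 to 4.05) from 22 against 4. KO saline had 83 phagocytes, so its phagocyte values rest on few cells.

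In the AngII library of wild-type mice, Cxcl1, Cxcl2 and Cxcl10 were at least 2-fold higher than in the saline library in both stromal gates, as were Cxcl12 in smooth muscle and Cxcl5 and Cxcl14 in fibroblasts. Of 16 values, 11 were at least 2-fold apart with the interval beyond 0, all 11 higher in WT AngII, against 14.2% over all genes and gates. In smooth muscle 4 of 5 members were higher (8.58% of genes) and none lower (6.42%), in fibroblasts 5 of 6 were higher (6.74%) and none lower (9.3%), and in phagocytes 2 of 5 were higher (5.17%) and none lower (6.08%). Fibroblast log2 ratios were 2.70 for Cxcl1 (2.56 to 2.84), 2.97 for Cxcl10 (2.37 to 3.63), 3.05 for Cxcl14 (1.46 to 5.35) and 0.17 for Cxcl12 (0.08 to 0.26). The fibroblast Cxcl5 ratio, 3.31 (1.92 to 5.20), compared 172 with 4 UMIs and was at 0.36 with looser gates. In WT saline 56 of 64 Cxcl5 UMIs lay outside all gates. Over all cells Cxcl5 was at 2.03 CPM in WT AngII and 1.07 in WT saline. Smooth muscle ratios were 3.15 for Cxcl1 (2.96 to 3.35), 2.91 for Cxcl10 (2.30 to 3.59) and 2.17 for Cxcl12 (2.10 to 2.24).

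For Cxcl2 in WT fibroblasts the ratio was 2.05 (1.82 to 2.27), and 3.85 without cells meeting another gate's minimum. In WT smooth muscle it was 1.15 (1.04 to 1.25), 1.33 without such cells and 0.95 as a mean over cells. There Cxcl2 stood at 1.42% (WT AngII) and 0.347% (WT saline) of the phagocyte level, against 1.02% and 0.337% of the phagocyte genes. The part of phagocyte RNA in that ratio was not tested. WT phagocytes stood apart from the stromal gates: Cxcl1 was at 0.13 (-0.02 to 0.29) and Cxcl2 at -0.89 (-0.92 to -0.85), whereas Cxcl10 was at 1.06 (0.78 to 1.35). That Cxcl10 ratio was 0.29 without the richest 1% of phagocytes, which include the cell with 237 UMIs. Cxcl12 in WT phagocytes, at 2.31 (1.30 to 3.54), compared 167 with 8 UMIs.

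Between the AngII and saline libraries of KO mice, 12 of 17 values were at least 2-fold apart with the interval beyond 0, 10 higher in KO AngII and 2 lower, against 15.5% over all genes and gates. In smooth muscle 6 of 6 members were higher (7.92% of genes) and none lower (7.36%), in fibroblasts 4 of 6 were higher (5.72%) and 1 lower (15.7%), and in phagocytes none of 5 was higher (2.77%) and 1 lower (5.77%). Fibroblast log2 ratios were 3.00 for Cxcl1 (2.86 to 3.14), 4.89 for Cxcl2 (4.38 to 5.46), 5.52 for Cxcl14 (3.97 to 7.80) and 0.74 for Cxcl10 (0.27 to 1.26). Cxcl12 in fibroblasts was lower, at -1.44 (-1.52 to -1.35), and in smooth muscle higher, at 1.12 (1.07 to 1.16). Of the 6 in smooth muscle, Cxcl5 was at 2.85 (135 against 22 UMIs) and Cxcl14 at 4.10 (102 against 7). In KO AngII 1 cell held 102 of the Cxcl5 UMIs. Neither gene had a UMI left in either library without the richest 1% of cells. Cxcl14 in KO AngII smooth muscle stood at 3.06% of the fibroblast level, below the 4.13% of the fibroblast genes. Without cells meeting another gate's minimum, Cxcl5 was at 1.24, Cxcl14 at 2.83 and Cxcl10 at 0.84 (1.17 with them). This comparison shares KO AngII with the genotype comparison under AngII and KO saline with that under saline, so the ratios are not independent of those above.

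KO phagocytes had 0.94 for Cxcl1 (0.71 to 1.19), 0.65 for Cxcl2 (0.57 to 0.73) and 0.95 for Cxcl10 (0.31 to 1.68). Cxcl12 was at -1.25 there (-1.81 to -0.66), from 140 against 33 UMIs, and at 0.0661 with stricter gates. The Cxcl2 phagocyte ratio of AngII to saline was thus positive in KO, at 0.65, and negative in WT, at -0.89, a difference that was not tested. Immediate early genes, 10 genes such as Fos that respond within minutes to dissociation, differed between AngII and saline, with a summed fibroblast level of 6388 CPM in KO AngII and 7826 in WT AngII, and of 13403 in KO saline and 11036 in WT saline. In smooth muscle the sum was 9727 CPM in KO AngII and 6807 in WT AngII, and 13346.5 in KO saline and 9288 in WT saline. The sum was thus lower under AngII than under saline in both gates and genotypes, and KO was above WT in smooth muscle and in saline fibroblasts, as for Cxcl1. The part of these genes in the ratios was not tested.

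Within AngII fibroblasts, Cxcl1 was spread over a wide range of counts. Cells with at least 30 Cxcl1 UMIs were 376 in KO AngII (20.01%) and 120 in WT AngII (7.08%), against 3 in KO saline (0.593%) and 1 in WT saline (0.0979%). The 10% of fibroblasts with the most Cxcl1 held 51.5% of its UMIs in KO AngII and 69.9% in WT AngII, a share that also depends on how many cells were positive (71.5% in KO AngII and 46.6% in WT AngII).

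**Figure D4:**
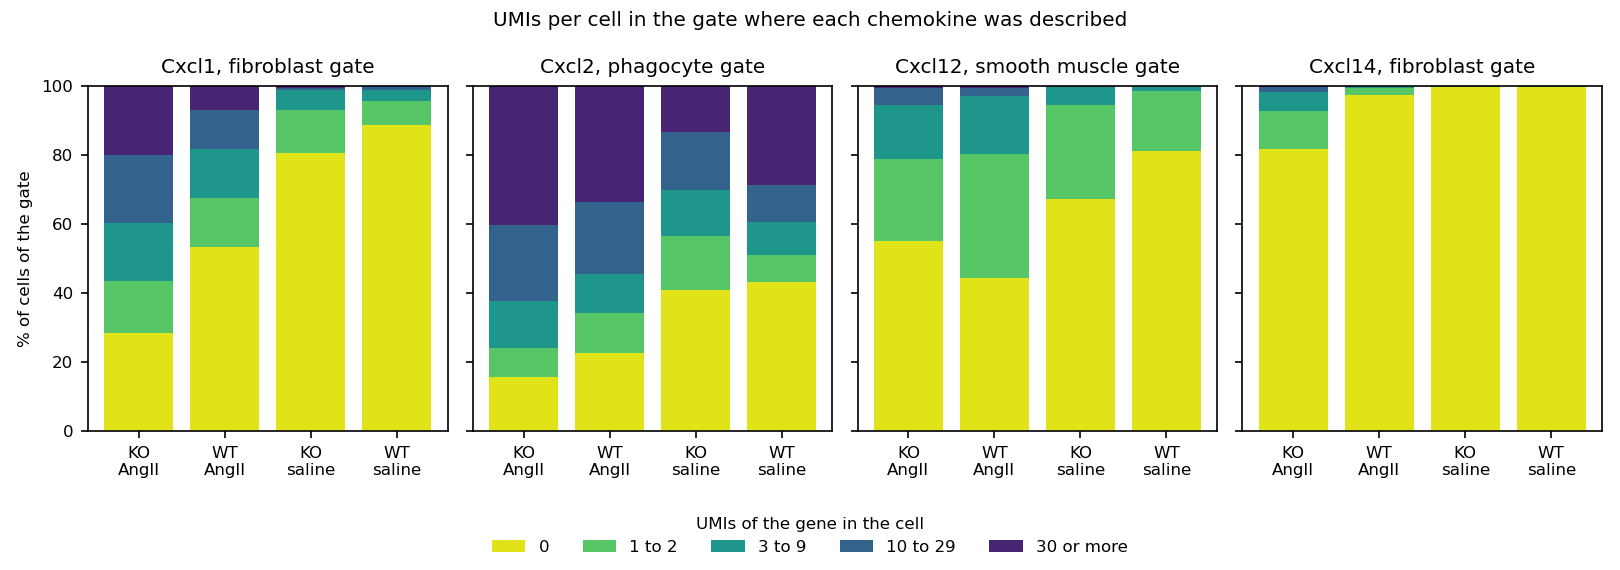
Share of the gate's cells (%) by the number of UMIs of the gene in the cell, for Cxcl1 and Cxcl14 in fibroblasts, Cxcl2 in phagocytes and Cxcl12 in smooth muscle of the 4 libraries. Fibroblasts with at least 30 Cxcl1 UMIs form 20.01% of KO AngII and 7.08% of WT AngII, and 0.593% of KO saline and 0.0979% of WT saline.

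Fibroblasts with 0, 1 to 9 and at least 10 Cxcl1 UMIs numbered 535, 596 and 748 in KO AngII and 906, 482 and 308 in WT AngII. From the lowest to the highest of these 3 sets Cxcl2 stood at 37.7, 131 and 682 CPM in KO AngII and at 27.1, 105 and 574 CPM in WT AngII. Cxcl10 stood at 6.56, 24.4 and 36.9 CPM in KO AngII and at 12.1, 63.2 and 85.2 CPM in WT AngII. Cxcl14 stood at 32.5, 35.4 and 81.1 CPM in KO AngII and at 3.50, 4.92 and 12.9 CPM in WT AngII, highest with the most Cxcl1. Cxcl12 differed little across the sets, at 201, 199.9 and 218 CPM in KO AngII and 378, 347 and 315 CPM in WT AngII. Cxcl2 and Cxcl10 thus had their highest level in the fibroblasts with the most Cxcl1 in both libraries, and Cxcl12 did so in KO AngII only, by a small margin.

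The monocyte chemoattractants Ccl2 and Ccl7 and the cytokine Il6 followed Cxcl1 across the same sets. Ccl7 stood at 374, 763 and 2753 CPM in KO AngII and 174, 471 and 1850 in WT AngII, Ccl2 at 295, 528 and 1933 CPM in KO AngII and 129.9, 652 and 1698 in WT AngII, and Il6 at 83.8, 175 and 298 CPM in KO AngII and 35.0, 117 and 238 in WT AngII. The immediate early gene Fos was also lowest in cells without Cxcl1, at 844, 1489 and 1355 CPM in KO AngII and 1370, 2576 and 2999 in WT AngII. The median depth of the 3 sets also differed, at 9872, 10796.5 and 14178 UMIs in KO AngII and 8188, 9536.5 and 12153.5 in WT AngII, and CPM is divided by that depth. By detection, Cxcl2 was found in 51.0% of fibroblasts with Cxcl1 and 17.0% of those without in KO AngII, and in 35.1% and 12.03% in WT AngII. Cxcl12 was found in 58.2% and 55.5% of these in KO AngII and 63.7% and 62.7% in WT AngII.

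**Figure D5:**
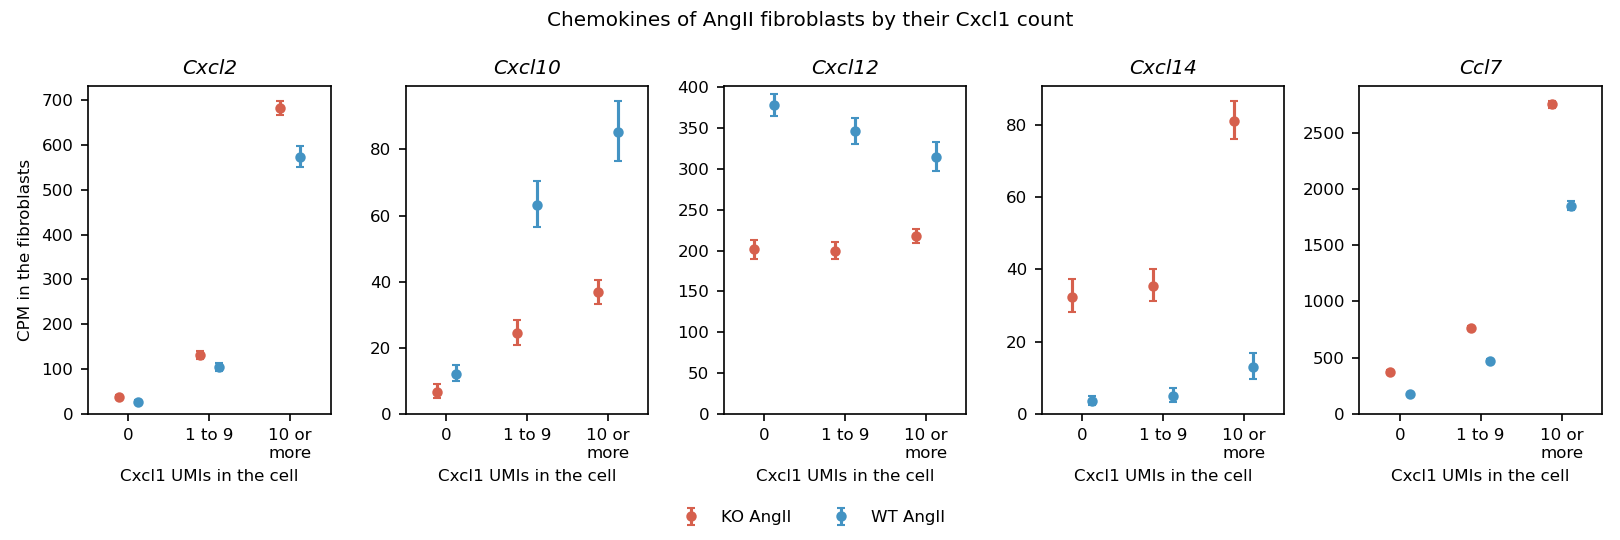
Level (CPM, linear axis, 95% Poisson intervals) of Cxcl2, Cxcl10, Cxcl12, Cxcl14 and Ccl7 in fibroblasts of KO AngII and WT AngII with 0, 1 to 9 and at least 10 Cxcl1 UMIs. In KO AngII and WT AngII, Cxcl2 is lowest in cells without Cxcl1 (37.7 and 27.1 CPM) and highest with at least 10 UMIs (682 and 574 CPM), while Cxcl12 stays between 199.9 and 218 CPM in KO AngII and between 315 and 378 CPM in WT AngII.

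Other genes divided the gates differently. Fibroblasts with at least 1 UMI of Cthrc1, a gene of matrix-producing activated fibroblasts, were 1540 of KO AngII and 1355 of WT AngII, and their Cxcl12 was at 192 CPM in KO AngII and 294 in WT AngII, against 344 and 676 in fibroblasts without it. Cxcl14 had the opposite pattern, at 60.1 CPM with and 19.6 without Cthrc1 in KO AngII and 6.52 and 3.50 in WT AngII. Smooth muscle cells with at least 1 UMI of Vcam1, an adhesion molecule induced by inflammation, had 245 CPM of Cxcl1 in KO AngII and 101.2 in WT AngII, against 43.4 and 16.8 in those without. Their Cxcl12 was at 293 CPM in KO AngII and 276 in WT AngII, against 140 and 121 without. Cells with these genes were deeper, at medians of 13146 against 7014 UMIs by Cthrc1 and 13794 against 7728 by Vcam1 in KO AngII, and the splits were chosen after the levels were seen.

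Cells with at least 3 UMIs of the interferon-induced genes Isg15, Ifit1 and Ifit3 together were few in KO AngII and more frequent in WT AngII, with 18 fibroblasts in KO AngII against 289 in WT AngII and 14 phagocytes in KO AngII against 108 in WT AngII. Cxcl10 was higher in them in both: 65.1 CPM against 25.2 in the other fibroblasts of KO AngII and 95.1 against 30.8 in those of WT AngII, and 762 CPM against 65.5 in KO AngII phagocytes and 380 against 114 in WT AngII phagocytes. The KO AngII values of 65.1 and 762 CPM rest on 18 fibroblasts and 14 phagocytes. The WT AngII phagocyte values include the cell with 237 of 999 UMIs. Among fibroblasts under that limit of 3 UMIs, Cxcl10 was at 25.2 CPM in KO AngII and 30.8 in WT AngII, against 25.7 and 43.7 over all fibroblasts. This split was also chosen after the levels were seen, and it uses interferon-induced genes, as Cxcl10 is. The part of these cells in the Cxcl10 ratio was not tested. Phagocytes with at least 3 UMIs of Lyve1, Cd163 and F13a1, genes of resident arterial macrophages, had Cxcl10 at 105 CPM in KO AngII against 23.9 in the rest, and at 66.4 in WT AngII (206 UMIs) against 238 in the rest (793 UMIs, which include the cell with 237). Their Cxcl2 was lower than in the rest in both libraries, 4352 against 5393 CPM in KO AngII and 2581 against 3680 CPM in WT AngII.

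The NF-kappaB response list of 16 genes was counted next to the Cxcr2 ligands. Under AngII, 5 were at least 2-fold higher in KO than in WT smooth muscle (2.77% of all genes), 3 in fibroblasts (2.34%) and 1 in phagocytes (1.37%), and none was lower in any gate. Their median log2 ratios were 0.63, 0.61 and 0.20, against -0.05, -0.11 and 0.01 over all genes. Under saline the counts were close to these, with 5 genes higher in KO than in WT smooth muscle (3.1%), 3 in fibroblasts (4.6%) and none in phagocytes (3.34%), none lower, and medians of 0.52, 0.39 and 0.11. Nfkbia, the inhibitor of NF-kappaB that NF-kappaB itself induces, stood in smooth muscle at 514 CPM in KO AngII and 227 in WT AngII. Ccl7 was at 1578 CPM in KO AngII fibroblasts and 640 in WT AngII fibroblasts, with a ratio of 1.30 (1.27 to 1.33), and Ptgs2, the inducible cyclooxygenase, at 351 and 120 CPM, with 1.55 (1.48 to 1.62). Between AngII and saline in WT, 8 genes were higher in smooth muscle (8.58% of all genes), 8 in fibroblasts (6.74%) and 1 in phagocytes (5.17%), and 1 was lower, in phagocytes (6.08%). In KO, 8 were higher in smooth muscle (7.92%), 9 in fibroblasts (5.72%) and 2 in phagocytes (2.77%), and none was lower. The phagocyte medians were -0.19 in WT and -0.02 in KO.

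The interferon response list of 12 genes went the other way under AngII. In KO AngII against WT AngII, 7 genes were at least 2-fold lower in smooth muscle (2.1% of all genes), 11 in fibroblasts (7.56%) and 10 in phagocytes (3.28%), and none was higher, with medians of -1.34, -3.52 and -2.04. In KO saline against WT saline, 3 were lower in smooth muscle (3.22%), 6 in fibroblasts (3.36%) and 6 in phagocytes (2.37%), and 1 was higher, in smooth muscle, with medians of -0.47, -0.90 and -0.71. Isg15 stood at 8.85 CPM in KO AngII fibroblasts and 139 in WT AngII fibroblasts, a log2 ratio of -3.98 (-4.18 to -3.78). Irf1, a transcription factor that responds to interferon and to NF-kappaB, was the exception in fibroblasts, at 94.6 CPM in KO AngII and 97.1 in WT AngII. Cxcl10, at -0.77 in fibroblasts, thus differed by less than the median of this list.

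Among 9 other CXC ligands, 8 were listed. Cxcl9, a second Cxcr3 ligand known as an interferon-gamma target, had 22 UMIs in KO AngII fibroblasts and 421 in WT AngII fibroblasts, a log2 ratio of -4.72 (-5.41 to -4.10), and at most 2 UMIs in the saline fibroblasts. Cxcl3, a further Cxcr2 ligand, was at 51.8 CPM in KO AngII phagocytes and 47.0 in WT AngII phagocytes, with 1 UMI in KO saline and none in WT saline. Cxcl13, a B-cell chemoattractant, had 126 UMIs in KO AngII fibroblasts and 12 in WT AngII fibroblasts, and 5 and 54 UMIs in phagocytes of the same libraries. Pf4, known from platelets and abundant in tissue macrophages, stood in phagocytes at 2345 CPM in KO AngII and 2045 in WT AngII, and at 3829 in KO saline and 4443 in WT saline.

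Of the receptors, Cxcr2 and Cxcr3 had few UMIs and the Cxcl12 receptors Cxcr4 and Ackr3 had more. Cxcr2 had no UMI in the gates of KO AngII, WT AngII and KO saline and 4 UMIs in those of WT saline, and the 4 listed neutrophil markers summed in phagocytes to 15.9 CPM in KO AngII and 20.5 in WT AngII, and to 10.4 in KO saline and 7.86 in WT saline. Cxcr3 had 11 UMIs in KO AngII phagocytes and 25 in WT AngII phagocytes, and 4 in KO saline and 6 in WT saline. Cxcr4, the signalling receptor of Cxcl12, was at 113 CPM in KO AngII phagocytes and 80.7 in WT AngII phagocytes, and at 43.8 in KO saline and 51.1 in WT saline. Ackr3, the scavenger receptor of Cxcl12, stood in fibroblasts at 139 CPM in KO AngII and 226 in WT AngII, and at 386 in KO saline and 293 in WT saline, highest in KO saline and lowest in KO AngII as was Cxcl12 in that gate.

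Among upstream cytokines, 11 of 13 listed genes were in the tables. Tnf and Il1b, both inducers of NF-kappaB, were highest in phagocytes in all 4 libraries. Tnf stood at 211 CPM in KO AngII phagocytes and 126 in WT AngII phagocytes, and at 129 in KO saline and 266 in WT saline, so KO AngII was above WT AngII and KO saline below WT saline, as for Cxcl2. Il1b stood at 281 CPM in KO AngII and 520 in WT AngII, and at 463 in KO saline and 130 in WT saline, a different order. In KO AngII against WT AngII, 1 gene of this list was at least 2-fold higher in smooth muscle (2.77% of all genes) and 1 lower in fibroblasts (7.56%), with medians of -0.05, -0.09 and 0.03 in smooth muscle, fibroblasts and phagocytes.

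The genes most like each member were sought over the 12 gate-by-library levels among 13519 genes with at least 100 UMIs, by the Pearson correlation of log2(CPM + 1). The points share libraries and gates and are few, so high values are frequent and the ranking is a description. For Cxcl1 they were Galnt10 (0.979), Ccl7 (0.972) and Ccl2 (0.966), and for Cxcl2 Ccl9 (0.982), Csf1r (0.982) and Myo5a (0.979). Cxcl10 was followed by Cd80 (0.982), Sdc3 (0.978) and Tceb3 (0.976), and Cxcl12 by Tmem29 (0.963), with Ppdpf and Ube2e2 next at 0.9597 and 0.9596. Cxcl5, next to Eef1b2 (0.972), Csf2 (0.968) and Rps2 (0.967), and Cxcl14, next to Creb3l3 (0.941), Gosr2 (0.9196) and Ska2 (0.907), were at low counts in most of the 12.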

How the data were processed

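Single-cell UMI counts were deposited by the authors as whole-number counts per gene and cell, without normalization, read from the values. The submitters' processing notes name Cell Ranger and mm10; its version, any filter and the treatment of reads shared by related genes: not given in the sources used here. Cells needed at least 500 genes and no more than 20% mitochondrial UMIs. Each cell was placed by the stated gates, which can overlap, and UMIs were summed by gate and library. CPM is UMIs per 1000000 UMIs of the gate, with exact Poisson intervals, and shares have exact Clopper-Pearson intervals. Log2 ratios have exact conditional intervals. A value was counted as apart at 2-fold with the interval beyond 0 and at least 10 UMIs in both libraries together; no fold is given against 0 UMIs, where 3 UMIs was taken as the floor. No doublet caller was run, so doublets remain, and gates without cells meeting another gate's minimum were an alternative. Shares were thinned to 2000 UMIs per cell by their hypergeometric expectation; the few shallower cells were left out. Genes named are the 6 members, listed genes with the most UMIs or largest ratio, and the 3 genes most alike. Members and lists were chosen with earlier results of these data known; the immediate early list and the splits of cells were added after the levels were seen. Promoters came from the RefSeq table of GRCm38.p6. The counting code was tested on simulated counts. Protein sequences were not used here. Tools were Python 3.11.15, numpy 2.4.6, scipy 1.17.1, matplotlib 3.10.9, R 4.3.3 and edgeR 4.0.16, used for TMM scaling only.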

Additional observations from a re-analysis of the deposited data

Results flagged for a closer look

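Several ratios pointed opposite ways in the AngII and the saline libraries, or in KO and WT; none of these differences was tested. Cxcl2 had a log2 ratio of KO to WT of 0.77 under AngII and -2.90 under saline in smooth muscle, of 1.05 and -1.79 in fibroblasts, and of 0.57 and -0.97 in phagocytes. The saline levels were close to those of phagocyte genes in the same cells for KO and WT in smooth muscle, and for WT in fibroblasts. The fibroblast ratio under saline was -0.18 without cells meeting another gate's minimum. The ratio of AngII to saline for Cxcl2 in phagocytes was 0.65 in KO and -0.89 in WT.

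Cxcl10 in fibroblasts had a log2 ratio of KO to WT of -0.77 under AngII and 1.46 under saline, the saline one from 38 and 23 UMIs in 8 and 9 cells. Cxcl12 in fibroblasts had -0.77 under AngII and 0.84 under saline, and its ratio of AngII to saline was -1.44 in KO and 0.17 in WT. Cxcl12 in phagocytes had a ratio of AngII to saline of -1.25 in KO and 2.31 in WT, from 33 UMIs in KO saline and 8 in WT saline.

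Cells outside all gates were used in no comparison. They held Cxcl12 at 336 CPM in KO AngII and 412 CPM in WT AngII, above 226 in KO saline and 111 in WT saline. They held Cxcl5 at 31.8 CPM in WT saline, from 56 UMIs in 12 cells with a median of 3179 UMIs. In those 12 cells fibroblast markers summed to 5269 CPM, smooth muscle markers to 3450 and endothelial markers to 1004, and phagocyte and neutrophil markers had no UMI.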

How the results depend on the processing

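Under 10 alternatives (cell filters, gate limits, scaling, leaving out the richest 1% of cells or shallow cells, mean over cells) the count of values past 2-fold stayed within 1.5 times its value in all 40 recomputations. Of 383 recomputed ratios of the 39 counted values, 16 were under 2-fold, 1 of them reversed: Cxcl12 in KO AngII over KO saline phagocytes was 0.0661 with strict gates. Among the others, Cxcl5 in WT AngII over WT saline fibroblasts was at 0.36 with loose gates. Cxcl12 in KO AngII over KO saline smooth muscle was at 0.48 as a mean over cells. Cxcl1 in KO AngII over WT AngII phagocytes was at 0.95 with exclusive gates. Cxcl5 in KO AngII over KO saline fibroblasts had 39 UMIs against none without the richest 1%, a bound and not a ratio. Some counted values had no UMI left in either library without the richest 1%, and these are not among the 383. In smooth muscle they were Cxcl5 and Cxcl14 in KO AngII over WT AngII and over KO saline. Cxcl5 and Cxcl10 in KO saline over WT saline smooth muscle and Cxcl5 in WT AngII over WT saline fibroblasts were the rest. The cause was not tested. TMM scaling moved KO AngII over KO saline by 0.31 in fibroblasts, 0.15 in smooth muscle and 0.15 in phagocytes, KO AngII over WT AngII by 0.11 in fibroblasts, and WT AngII over WT saline by 0.17 in fibroblasts, 0.10 in smooth muscle and 0.13 in phagocytes. The number of genes at least 2-fold apart per gate and comparison was between 93 and 1834 with a minimum of 100 UMIs in both libraries together and no limit on the interval, between 31 and 1047 with 300 UMIs and between 1488 and 4360 with 1 UMI. No paired analysis was possible because each group is 1 library and no test was made. Depth limits Cxcl5, Cxcl14 and all values of the 83 KO saline phagocytes.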
